A study of Mus musculus with 6 samples.

Results

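The mitochondrial carriers of the SLC25 family move metabolites, nucleotides, cofactors and ions across the membranes of mitochondria. The family was taken as every gene symbol made of Slc25a and a number, with the uncoupling proteins Ucp1, Ucp2 and Ucp3 and the outer membrane relatives Mtch1 and Mtch2. This rule found 51 genes among the 21033 of the deposited count table, and it used no measured value. Transcripts were counted in primary synovial fibroblasts taken from the ankle of hTNFtg mice, an arthritis model with a transgene for human TNF. All cells carried the transgene and had been cultured for 3 passages. The controls received the solvent DMSO (3 libraries) and the treated cells 10 µM compound 33 (3 libraries), in both cases for 48 h, and no group lacked the transgene. The labels do not say whether replicates of a group came from separate animals or cultures, so a p-value here reflects spread among libraries that could be technical repeats.

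The inner membrane of mitochondria is nearly impermeable to charged molecules, and most carriers exchange one solute for another across it. Among the best known exchanges are ATP for ADP, phosphate entry for ATP synthesis, malate and aspartate shuttling of reducing power, and citrate export for lipid synthesis. Carriers are made in the cytosol and reach the inner membrane through the TOM pore and the TIM22 complex. A few members lie elsewhere, in the outer membrane or in peroxisomes.

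The libraries held 1594052 to 2897207 reads, and between 0.304% and 0.361% of the reads of a library fell on carriers. In all, 33 of the 51 carriers passed the filter on low counts and were tested, and they held all but 0.540% of the carrier reads. All 8 fibroblast markers checked (Thy1, Pdpn, Prg4, Pdgfra, Vim, Cdh11, Col1a1 and Col1a2) were tested, with a summed level of 11868 to 13462 counts per 1000000 reads (CPM) with DMSO and 10615 to 12611 CPM with compound 33. Thy1 was the one whose groups did not overlap, at 851, 871 and 574 CPM with DMSO and 427, 525 and 507 CPM with compound 33 (log2 fold change -0.65, SE 0.23, unadjusted p = 0.0128, adjusted p = 0.605 in edgeR). Of all tested genes, 13.4% had groups that did not overlap, and 6.73% did so downward. The 8 macrophage markers summed to 63.1 to 136 CPM with DMSO and 52.7 to 103 CPM with compound 33, most of it Lyz2 and Cd14, while Ptprc and Adgre1 had 6 and 4 reads in all libraries together. The 5 adipocyte markers stayed under 2.26 CPM in sum, with 0 reads for Cidec. The 7 muscle markers summed to 24.7 to 40.3 CPM with DMSO and 20.1 to 36.1 CPM with compound 33, most of it Acta1, while Myh2 and Myh4 had 0 reads and Ckm 1, and Des had 1 read in each control and 4 to 7 in each treated library. The 5 chondrocyte markers summed to 78.5 to 163 CPM and 112 to 156 CPM, most of it Sox9, with 0 reads for Acan. The 5 endothelial markers summed to 2.44 to 3.16 CPM with DMSO and 5.15 to 9.54 CPM with compound 33. That difference came mainly from Tek, Pecam1 had 0 reads, and the part of these marker levels in the carrier results was not tested.

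Levels spanned a wide range within the family. By mean over the 6 libraries, the highest were the phosphate carrier Slc25a3, the ADP/ATP translocase Slc25a4, Mtch1, the NAD importer Slc25a51, Mtch2, the iron carrier Slc25a37, the second translocase Slc25a5, the glutathione carrier Slc25a39, the citrate carrier Slc25a1 and the ATP-Mg/phosphate carrier Slc25a24. These 10 genes held 75.6% of all carrier reads, and Slc25a3 alone held 14.0%. They were also the 10 carriers with a mean of at least 100 CPM, 12 more lay between 20 and 100 CPM, and 11 tested carriers lay under 20 CPM. The mean level of Slc25a3 was 91.6 times that of Slc25a26, the lowest tested carrier. The library kit primes at the poly(A) tail, so 1 transcript gives about 1 countable fragment whatever its length, and levels of different carriers were compared in CPM without a length term. In the order of mean levels, 31 of the 32 pairs of neighbours had ranges over the 6 libraries that overlapped. The exception was the step from Slc25a39 (168 to 202 CPM) down to Slc25a1 (109 to 133 CPM).

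**Figure D1:**
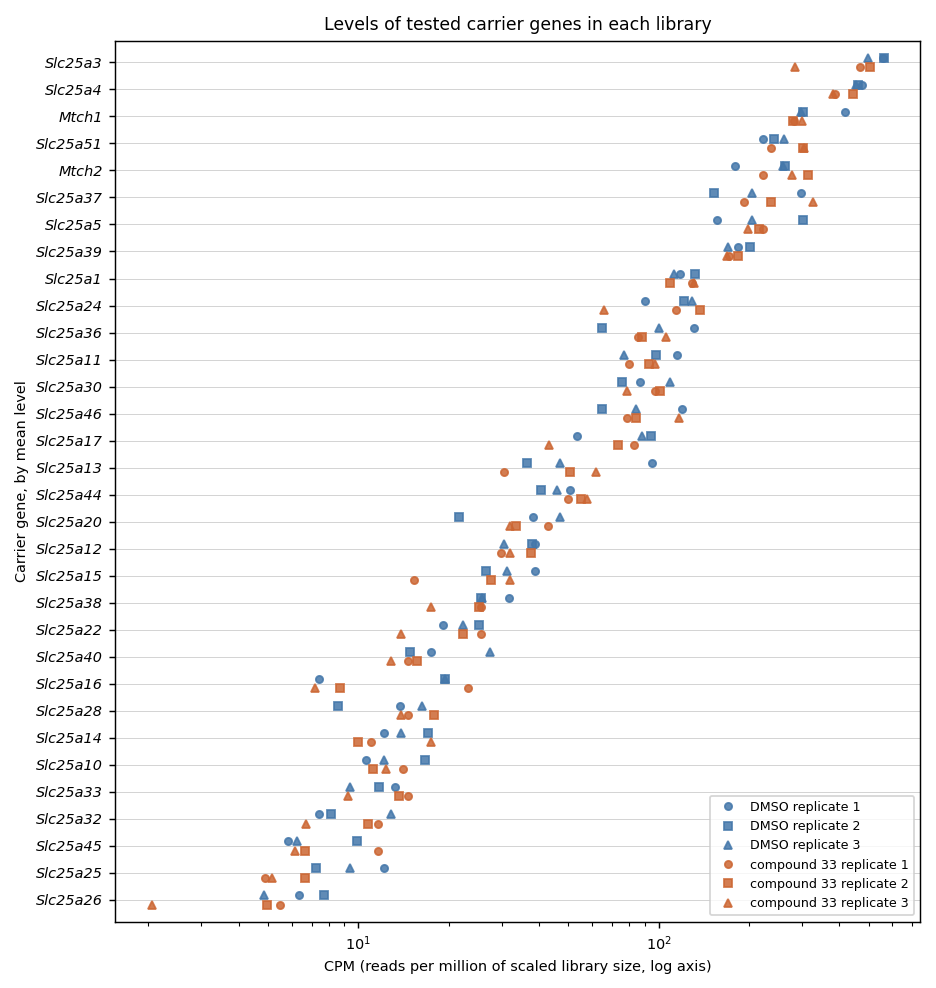
Level of the tested carriers in each library (1 of them not shown), in CPM on a log axis, with carriers ordered by their mean over the 6 libraries. Blue symbols are DMSO libraries and orange symbols compound 33 libraries, and the symbol shape gives the replicate. The blue and orange symbols overlap for every carrier shown except Slc25a4, Slc25a38 and Slc25a25.

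No carrier differed between compound 33 and DMSO at the thresholds used. With edgeR's quasi-likelihood test, 0 of the 33 tested carriers had an adjusted p under 0.05, where 3 of all 10124 tested genes (0.0296%) did. At an unadjusted p under 0.05 the count was also 0 of 33, where 6.87% of all tested genes lay, and DESeq2 and limma-voom gave 0 carriers at either threshold as well. The lowest adjusted p of a carrier was 0.768, for Slc25a25. Groups did not overlap for 3 of the 33 tested carriers, all lower with compound 33. Among all tested genes, 13.4% did not overlap and 6.73% did so downward. Log2 fold changes ran from -0.77 to 0.26, with a median of -0.09 beside -0.01 over all tested genes. Of the 33 carriers 20 had a negative value (60.6%), beside 51.1% of all tested genes. The median was -0.019 without compound 33 replicate 3, the library that gave the lowest level for 12 of the 33 carriers. Libraries of DMSO gave the lowest level for 14 of the carriers together, 7 of them in replicate 2.

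A difference that misses the threshold is not shown to be absent, so the 95% intervals of the log2 fold change set what sizes these libraries allow. For 27 of 33 carriers the interval lay within a 2-fold change in either direction. This held for 21 of the 22 carriers with a mean of at least 20 CPM, the exception being Slc25a13, and for 6 of the 11 below it. The intervals of Slc25a13, Slc25a40, Slc25a16, Slc25a25 and Slc25a26 reached past a 2-fold lower level, and that of Slc25a45 past a 2-fold higher one.

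**Figure D2:**
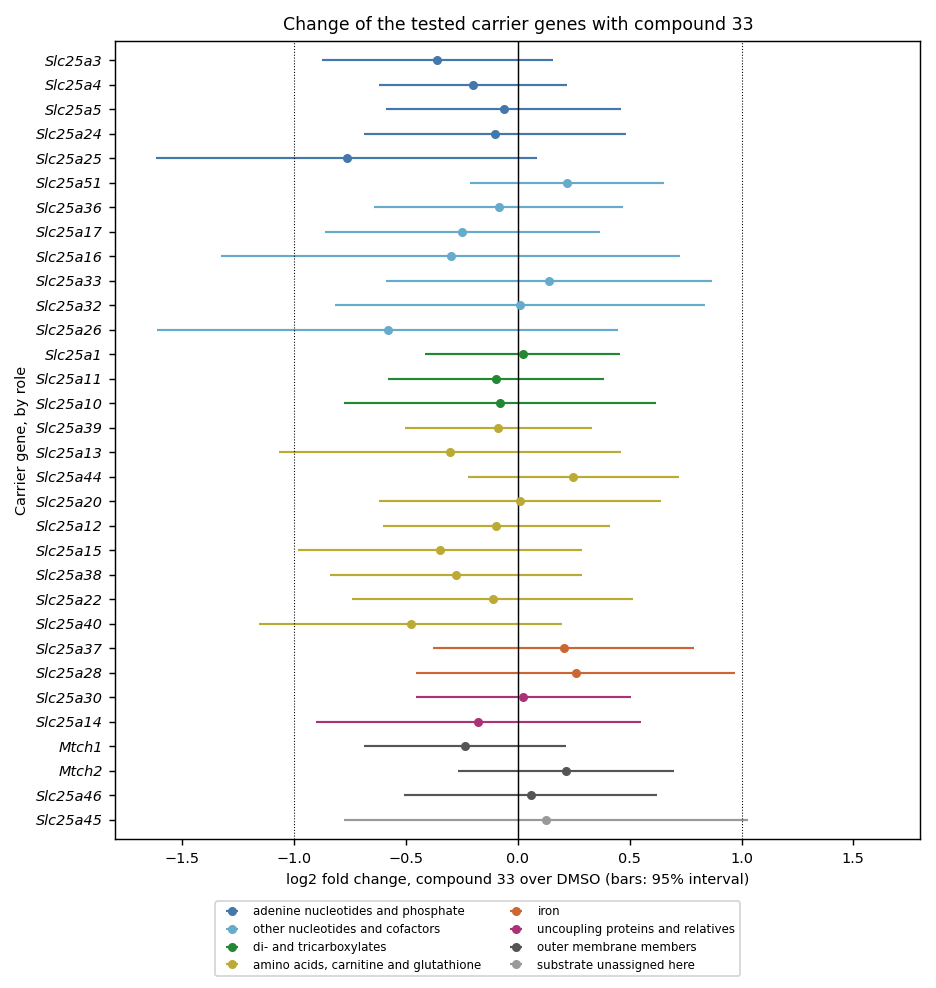
Log2 fold change of the tested carriers (1 of them not shown), compound 33 over DMSO, with its 95% interval from edgeR's quasi-likelihood fit, coloured and ordered by role. The solid line marks no change and the dotted lines a 2-fold change; every interval shown crosses the solid line, and 6 reach past a dotted line.

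The summed level of the 51 carriers was 3657, 3511 and 3460 CPM in the DMSO libraries and 3224, 3571 and 3249 CPM in the compound 33 libraries. The group means were 3543 ± 102 and 3348 ± 194 CPM (mean ± SD, n = 3 each), and the ranges overlapped because compound 33 replicate 2 lay above DMSO replicates 2 and 3.

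Carriers of phosphate and adenine nucleotides supply ATP synthase with its substrates and export its product. All 5 tested members of this group had negative log2 fold changes, beside 51.1% of all tested genes. Their median was -0.20, and none passed. With 1 library left out, Slc25a5 reached 0.24 and Slc25a24 0.15. Of the 3 untested members Slc25a23 had the most reads, with means of 2.65 CPM in controls and 4.22 CPM in treated libraries. Slc25a3, which brings in phosphate and also copper, stood at 559, 562 and 498 CPM with DMSO and at 469.5, 507 and 284 CPM with compound 33. The ranges overlapped, and the third treated library was far below the others. edgeR gave a log2 fold change of -0.36 (SE 0.24) at an adjusted p of 0.838, and -0.14 without compound 33 replicate 3. On mm10, its gene body spans bases 91116574 to 91124059 of chromosome 10, minus strand.

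Slc25a4 and Slc25a5 encode the 2 ADP/ATP translocases found in most body tissues. Slc25a4 is known as the form of heart and muscle and Slc25a5 as the form of dividing cells. Slc25a4 stood at 476, 459.7 and 454 CPM with DMSO and at 386, 442 and 380.4 CPM with compound 33, so every treated library lay below every control. The gap between the groups was small, and the log2 fold change was -0.20 (SE 0.19, 95% interval -0.62 to 0.22, adjusted p = 0.902 in edgeR). Slc25a5 stood at 157, 304 and 204 CPM with DMSO and at 223, 215 and 198 CPM with compound 33. The DMSO libraries spread around the tight treated ones, and the log2 fold change was -0.06 (95% interval -0.59 to 0.46). Its sign depended on the libraries used, at -0.26 without DMSO replicate 1 and 0.24 without DMSO replicate 2. Slc25a4 took 75.2%, 60.2% and 69.0% of the reads of the pair with DMSO and 63.4%, 67.3% and 65.7% with compound 33. It was thus the more counted translocase in all 6 libraries, with exact 95% binomial bounds of 57.8% to 77.6% over the libraries, which cover counting error only. A processed copy of Slc25a5 is annotated elsewhere in the genome, and the handling of reads with several matches is not stated, so the level of Slc25a5 is uncertain. Slc25a4 lies on chromosome 8 (46206797 to 46211284, minus strand) and Slc25a5 on chromosome X (36795651 to 36798807, plus strand). The germ-cell translocase Slc25a31 had 1 read in each library numbered 3 and 0 in the rest.

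The ATP-Mg/phosphate carriers adjust the adenine nucleotide pool of mitochondria in response to calcium. Slc25a24 made up most of this set, with 85.9% to 93.1% of the reads of Slc25a23, Slc25a24 and Slc25a25 in each library. It stood at 90.1, 122 and 129 CPM with DMSO and at 114, 138 and 65.9 CPM with compound 33, with overlapping ranges and the highest and lowest levels both in treated libraries. Slc25a25 stood at 12.2, 7.22 and 9.40 CPM with DMSO and at 4.89, 6.63 and 5.15 CPM with compound 33. These levels rest on 16 to 27 reads in the controls and 8 to 16 reads in the treated libraries. The groups did not overlap, and the value was the most negative of the family, a log2 fold change of -0.77 (SE 0.39, 95% interval -1.62 to 0.09, unadjusted p = 0.0743, adjusted p = 0.768 in edgeR). In the authors' deposited table the log2 fold change of Slc25a25 is -0.77 with an unadjusted p of 0.155. Exons of Slc25a25 overlap those of Naif1 on the other strand, and whether counting used strand is not stated. Reads on the shared bases could thus come from either gene. Whether the overlap lies near a poly(A) end, where the reads are primed, was not examined. Slc25a23 had 4 to 10 reads in the DMSO libraries and 6 to 13 in the treated ones and was not tested, and Slc25a41 had 0 reads.

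Of the carriers for other nucleotides and cofactors, 8 were tested, 4 with a positive and 4 with a negative value, and none passed. Slc25a51, which imports NAD, stood at 222, 243 and 261 CPM with DMSO and at 237, 303 and 305 CPM with compound 33. Only the first treated library lay within the control range, and the log2 fold change was 0.22 (SE 0.20, 95% interval -0.22 to 0.65). Slc25a51 was thus the fourth carrier by level, above the translocase Slc25a5 by mean, though the ranges of the pair overlapped. It lies on chromosome 4 (45395923 to 45408766, minus strand), and its exons overlap the annotated gene Gm25692 on the same strand.

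Pyrimidine nucleotides, needed for mitochondrial DNA and RNA, enter through Slc25a33 and Slc25a36. Slc25a36 stood at 131, 65.0 and 101 CPM with DMSO and at 85.6, 87.9 and 106 CPM with compound 33, and it took 84.7% to 91.9% of the pair's reads. Slc25a33 stood at 9.40 to 13.3 CPM and 9.27 to 14.7 CPM. The log2 fold changes were -0.09 (SE 0.26) and 0.14 (SE 0.34). That of Slc25a36 was 0.16 without DMSO replicate 1, and that of Slc25a33 was 0.0056 without DMSO replicate 3. Slc25a17, the peroxisomal member, stood at 53.6, 94.3 and 87.7 CPM with DMSO and at 82.5, 73.4 and 43.2 CPM with compound 33, again with ranges that overlapped.

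The remaining cofactor carriers were low. Slc25a26 brings in S-adenosylmethionine, the donor for methylation in mitochondria. It stood at 6.36, 7.67 and 4.87 CPM with DMSO and at 5.50, 4.97 and 2.06 CPM with compound 33. The log2 fold change of -0.58 (SE 0.48) rests on 4 to 17 reads a library, and exons of Slc25a26 overlap those of Lrig1 on the other strand. The same doubt about strand holds for Slc25a10, Slc25a33 and Slc25a46, whose exons overlap other genes in this way. Slc25a32, for folate or FAD, had means of 9.47 ± 2.97 and 9.70 ± 2.63 CPM, and Slc25a16, linked to coenzyme A, of 15.4 ± 6.94 and 13.0 ± 8.85 CPM. Slc25a16 varied most within the treated group of all tested carriers, at 23.2, 8.71 and 7.21 CPM, a coefficient of variation of 67.8%. Slc25a42, which carries coenzyme A, had 6 to 19 reads a library and was not tested.

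Carriers of di- and tricarboxylates link the citric acid cycle to the cytosol. Of the 4 members 3 were tested, and their log2 fold changes lay between -0.10 and 0.02. Slc25a1, the citrate exporter that feeds lipid synthesis, stood at 118, 133 and 113 CPM with DMSO and at 129, 109 and 131 CPM with compound 33. The levels interleaved between the groups, and the log2 fold change was 0.02 (SE 0.20, 95% interval -0.41 to 0.46). Slc25a11, the oxoglutarate/malate carrier, stood at 116, 97.9 and 76.6 CPM with DMSO and at 79.5, 93.3 and 97.3 CPM with compound 33 (log2 fold change -0.10, SE 0.22), and its exons overlap Rnf167 on the opposite strand. Slc25a10, the dicarboxylate carrier, had means of 13.2 ± 3.16 and 12.5 ± 1.44 CPM. The oxodicarboxylate carrier Slc25a21 had 1 read in compound 33 replicate 1 and 0 elsewhere.

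Among the 9 tested carriers of amino acids, carnitine and glutathione, 7 had a negative value (77.8%, beside 51.1% of all tested genes). The median was -0.11, and none passed. Slc25a12 and Slc25a13 encode the aspartate/glutamate exchangers aralar and citrin of the malate-aspartate shuttle. Slc25a12 stood at 38.7, 37.9 and 30.6 CPM with DMSO and at 30.0, 37.7 and 31.9 CPM with compound 33. Slc25a13 stood at 94.9, 36.5 and 47.0 CPM with DMSO and at 30.6, 50.6 and 61.8 CPM with compound 33. DMSO replicate 1 was the highest library for both and stood far above the others for Slc25a13, whose coefficient of variation of 52.3% was the largest in the DMSO group. The log2 fold change of Slc25a13 was -0.30 (SE 0.35), and 0.19 without that library. The share of Slc25a13 in the pair was 71.0%, 49.1% and 60.5% with DMSO and 50.5%, 57.3% and 65.9% with compound 33, so no exchanger was the more counted one in every library.

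Slc25a39 and Slc25a40 import glutathione, the main thiol antioxidant, which mitochondria cannot make. Slc25a39 stood at 184, 202 and 171 CPM with DMSO and at 171, 184 and 168 CPM with compound 33. It was among the steadiest carriers, with a log2 fold change of -0.09 (SE 0.19, 95% interval -0.51 to 0.33), which was -0.015 without DMSO replicate 2. Slc25a40 stood at 17.5, 14.9 and 27.5 CPM with DMSO and at 14.7, 15.8 and 12.9 CPM with compound 33. The log2 fold change was -0.48 (SE 0.31), and -0.16 when DMSO replicate 3 was left out. Slc25a39 took 86.1% to 93.1% of the reads of the pair.

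Slc25a38 imports glycine for the first step of haem synthesis. It stood at 31.8, 25.7 and 25.8 CPM with DMSO and at 25.7, 25.3 and 17.5 CPM with compound 33. All treated libraries lay below all controls, though the highest treated and lowest control libraries both round to 25.7 CPM, and edgeR gave a log2 fold change of -0.28 (SE 0.26) at an adjusted p of 0.898, and -0.11 without compound 33 replicate 3. Slc25a15, the ornithine carrier of the urea cycle, stood at 38.7, 26.6 and 31.3 CPM with DMSO and at 15.3, 27.8 and 31.9 CPM with compound 33 (log2 fold change -0.35, SE 0.29). Its first treated library was the low one, and the value was -0.11 without it. The second ornithine carrier, Slc25a2, had 0 reads in every library.

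Other members of this group carry fatty acids or further amino acids. Slc25a20 carries acylcarnitines in for fatty acid oxidation and had a mean of 35.6 ± 12.9 CPM in controls and 36.1 ± 5.86 CPM in treated cells. Slc25a44 imports branched-chain amino acids and had the largest positive value of the group, a log2 fold change of 0.25 (SE 0.22), from 50.9, 40.6 and 46.0 CPM to 50.1, 55.1 and 57.7 CPM. The ranges of Slc25a44 overlapped only through DMSO replicate 1. The glutamate carrier Slc25a22 stood at 22.2 ± 3.09 and 20.7 ± 6.08 CPM, beside 0 to 6 reads a library for the related Slc25a18. The basic amino acid carrier Slc25a29 had 1 to 8 reads a library.

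Iron enters mitochondria for haem and iron-sulphur clusters through the mitoferrins Slc25a37 and Slc25a28. Slc25a37, best known from red cell precursors, took 92.6% to 95.9% of the pair's reads in these fibroblasts. It stood at 298, 153 and 205 CPM with DMSO and at 193, 236 and 326 CPM with compound 33, with wide and overlapping ranges. The log2 fold change was 0.20 (SE 0.27, 95% interval -0.38 to 0.79), and it ran from -0.017 without compound 33 replicate 3 to 0.49 without DMSO replicate 1. Slc25a28, known as the broadly expressed form, stood at 13.8, 8.57 and 16.4 CPM with DMSO and at 14.7, 17.8 and 13.9 CPM with compound 33 (log2 fold change 0.26, SE 0.33, and 0.04 without DMSO replicate 2). Slc25a37 lies on chromosome 14 (69241848 to 69285112, minus strand), and its exons overlap Gm27223 and Gm31748 on the opposite strand. Whether counting used strand, and how it treated reads on shared exons, is not stated, so the level of Slc25a37 is uncertain.

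**Figure D3:**
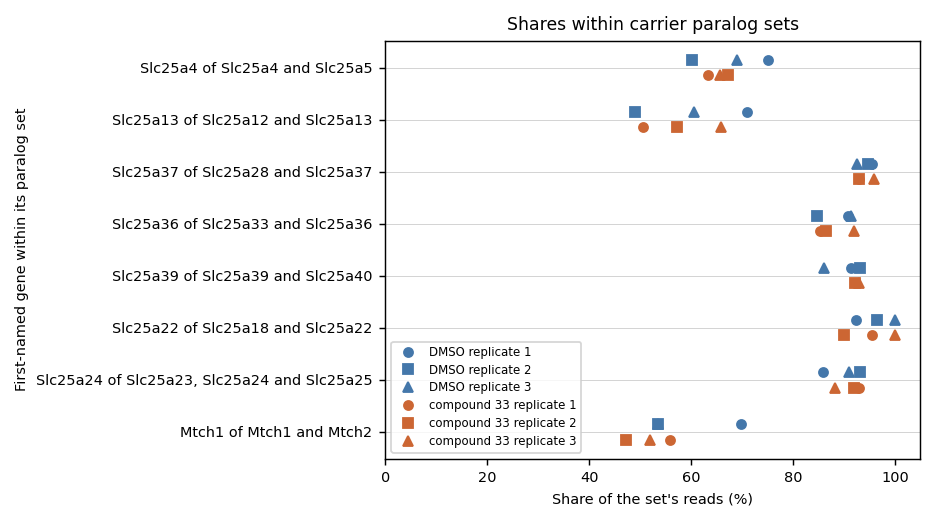
Share of the first-named gene in the reads of its paralog set, in percent, for each library, with DMSO in blue and compound 33 in orange. The shares of the groups overlap in all 8 sets, with 90.0% to 100% for Slc25a22, 92.6% to 95.9% for Slc25a37 and 47.3% to 69.9% for Mtch1.

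Uncoupling proteins were almost absent from the libraries. Ucp1, which makes heat in brown fat, and Ucp3, a form of skeletal muscle, had 0 reads in all libraries. Over the libraries together, 0 reads allow a level of up to 0.231 CPM (3 reads, counting error only). Ucp2, the widely expressed form in immune cells and other tissues, had 3, 0 and 3 reads with DMSO and 0, 4 and 2 with compound 33. The relatives Slc25a14 and Slc25a30 were counted more. Slc25a30 stood at 87.0, 75.8 and 109 CPM with DMSO and at 97.2, 101 and 78.8 CPM with compound 33 (log2 fold change 0.02, SE 0.22). Slc25a14 had means of 14.4 ± 2.51 and 12.8 ± 4.09 CPM, and Slc25a27, a form of the brain, had 1 to 15 reads a library.

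The members of the outer membrane include Mtch2, an insertase that places tail-anchored proteins in that membrane, and its relative Mtch1. Mtch1 stood at 417, 302 and 298 CPM with DMSO and at 282, 281 and 299.6 CPM with compound 33. DMSO replicate 1 lay far above the other 5 libraries, which were nearly level, and the log2 fold change of -0.24 (SE 0.21) became -0.06 without it. Mtch2 stood at 179.8, 263 and 259 CPM with DMSO and at 223, 313 and 278 CPM with compound 33 (log2 fold change 0.22, SE 0.22, 95% interval -0.27 to 0.70). Its lowest library was DMSO replicate 1, the one in which Mtch1 was highest, and without it the log2 fold change of Mtch2 was 0.06. The share of Mtch1 in the pair was 69.9%, 53.5% and 53.5% with DMSO and 55.8%, 47.3% and 51.9% with compound 33, and these ranges overlapped. Slc25a46, which acts in the shaping of mitochondria, stood at 119.8, 65.0 and 84.3 CPM and at 78.3, 84.2 and 117 CPM. Mtch1 lies on chromosome 17 (29332072 to 29347934, minus strand) and Mtch2 on chromosome 2 (90847155 to 90866810, plus strand).

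Of the carriers given no substrate here, Slc25a45 was the one tested, with means of 7.34 ± 2.25 and 8.14 ± 3.02 CPM. Slc25a35 had 3 to 5 reads in the DMSO libraries and 4 to 11 in the treated ones, and Slc25a47 had 0 to 5. Slc25a34 and Slc25a48 had 1 read each, and Slc25a53 and Slc25a54 had 0. In all, 18 carriers were not tested, 6 of them without a read and 12 with 1 to 61 reads over the 6 libraries.

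Promoter sequence was looked up because the transcription factor NRF1 is known to act on many genes of mitochondria. The RefSeq promoter table for GRCm38.p6, the same assembly as mm10, held 40 of the 51 carriers, with 250 bases before and 50 after each start. The motif GCGCANGCG, searched on both strands of these 300 bases, was found for 3 of the 40 (7.5%), beside 10.3% of all genes of the count table that the promoter table holds. Among tested carriers it was found for 2 of 26 (7.69%), Slc25a3 and Mtch2, beside 16.7% of all tested genes. This motif was set after the data were seen and after a form 1 base longer had been searched. The remaining carrier with a match was Slc25a31, which had 2 reads in all. Each line gives the gene strand 5′ to 3′, with the match in capitals and 10 bases on each side. The windows lie at chr10:91124162-91124190 (minus strand) for Slc25a3, chr2:90847033-90847061 and chr2:90847088-90847116 (plus strand) for Mtch2, and chr3:40708817-40708845 (plus strand) for Slc25a31.
Slc25a3: tttggatctgCGCCTGCGCagtaggaatc
Mtch2, first match: cttccggcttGCGCAGGCGcaagagaaat
Mtch2, second match: cacgcccagaCGCATGCGCgtccctccca
Slc25a31: ccgttgggcgCGCCTGCGCagcttttccg
The motif CCGGAAGT of ETS factors, searched the same way, was found for Mtch2 and Slc25a20 (5.0% of the 40 carriers, beside 6.07% of all genes of the count table). A match is a run of letters and no measure of binding, and the matches went with both high and nearly absent transcripts.

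No gene of the route that imports carriers passed the test. All 16 listed genes of the TOM pore and the TIM22 route were tested, and their median log2 fold change was -0.12. Of the 16, 12 were negative (75%, beside 51.1% of all tested genes). Tomm20, a receptor of the TOM complex, was the only one with an unadjusted p under 0.05, and 1 of 16 is close to the 6.87% of all tested genes. It stood at 52.0, 44.2 and 44.9 CPM with DMSO and at 37.9, 29.4 and 27.3 CPM with compound 33, with groups that did not overlap (log2 fold change -0.58, SE 0.24, unadjusted p = 0.0284, adjusted p = 0.697 in edgeR). Tomm70a, the receptor that binds carrier precursors, had a log2 fold change of 0.08 (SE 0.21), and Timm22, the channel itself, -0.22 (SE 0.21). Groups did not overlap for 3 of the 16 (Tomm20, Tomm22 and Timm22), all lower with compound 33, where 6.73% of all tested genes did so downward.

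Transporters of the inner membrane outside the family, such as the pyruvate carrier, sideroflexins, calcium uniporter and ABC exporters, also gave 0 of 17 tested genes with an adjusted p under 0.05. Their median log2 fold change was 0.03, with 10 positive and 7 negative. Abcb8, an ABC transporter of the inner membrane, was the one of 17 with an unadjusted p under 0.05, again close to that share. It stood at 8.48, 7.67 and 5.22 CPM with DMSO and at 11.6, 12.4 and 18.5 CPM with compound 33, so all treated libraries lay above all controls (log2 fold change 1.02, SE 0.37, unadjusted p = 0.0161, adjusted p = 0.649 in edgeR). The subunits of the pyruvate carrier, Mpc1 and Mpc2, had log2 fold changes of 0.08 (SE 0.27) and -0.31 (SE 0.23). Groups of Mpc2 did not overlap either, in the lower direction, at 49.3, 66.3 and 48.0 CPM with DMSO and at 45.9, 39.4 and 46.8 CPM with compound 33. Thus 1 of the 17 separated upward and 1 downward, where 13.4% of all tested genes did not overlap.

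In the outer membrane, the 4 genes of the VDAC pores and Tspo had a median of -0.17, and none passed. The most counted of them, Vdac2, stood at 424, 378 and 389 CPM with DMSO and at 347, 293 and 346 CPM with compound 33 (log2 fold change -0.27, SE 0.20, adjusted p = 0.872 in edgeR). Its treated libraries lay below its controls, which made 1 of 4, where 6.73% of all tested genes did not overlap downward. Of the 10 genes listed for mitochondrial biogenesis 7 were tested, 0 passed, and the median was -0.19. Among those 7, 2 had a positive and 5 a negative value. The most counted, the transcription factor Gabpa and Esrra, had log2 fold changes of -0.13 (SE 0.24) and 0.15 (SE 0.28). The DNA packaging factor Tfam had one of -0.19 (SE 0.28). Gabpb1 was the 1 of the 7 whose groups did not overlap. It stood at 13.8, 14.0 and 16.7 CPM with DMSO and at 9.78, 13.3 and 10.3 CPM with compound 33 (log2 fold change -0.41, SE 0.31). The coactivators Ppargc1a and Ppargc1b had 8 and 11 reads in all libraries together and were not tested. Those of Ppargc1b were 0, 1 and 1 with DMSO and 3 in each treated library, too few to judge a difference. Those of Ppargc1a were 0, 3 and 0 with DMSO and 3, 2 and 0 with compound 33. Tfb1m, also untested, had 8, 4 and 9 reads with DMSO and 8, 10 and 4 with compound 33.

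**Figure D4:**
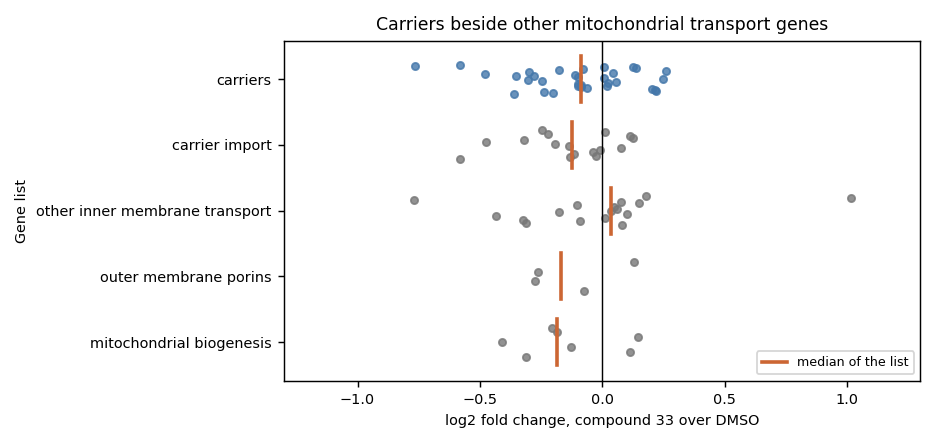
Log2 fold change, compound 33 over DMSO, of each tested gene in the carrier family and in 4 other mitochondrial lists; each point is a gene and each bar the list's median. The medians lie between -0.19 and 0.03, and points far from 0 include Slc25a25 among the carriers, on the left, and Abcb8 among the other inner membrane transporters, on the right.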

How the data were processed

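The carriers, their role groups and the other gene lists were chosen with earlier results of these data known. Per the submitters' processing notes, the tools were HISAT2 2.2.1, featureCounts 2.0.3, FastQC 0.11.9 and DESeq2, on mm10. For the annotation, strand setting and multiply matching reads, nothing is given in the sources used here. Raw counts of whole reads for each symbol and library were deposited. A second table that the authors deposited gives, per the file headers, a mean normalized signal, a log2 fold change with its standard error, a Wald score, and p-values with adjusted p-values.

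The main test was that of edgeR 4.0.16 under R 4.3.3 (filterByExpr with a minimum count of 10, TMM scaling, robust quasi-likelihood F test, two-sided, Benjamini-Hochberg over all 10124 tested genes, threshold 0.05). CPM refers to the scaled library size, values are mean ± SD over 3 libraries, and the SE follows from the unshrunk log2 fold change and F. Alternatives were other scalings and filters, no robust estimation, DESeq2 1.42.0, limma-voom (limma 3.58.1), the replicate number as a block and each library left out. All 51 carriers matched 1 gene of GENCODE M21 (mm10, coordinates from 1), all protein coding, on 19 chromosomes. Exons of 8 tested carriers overlap a gene on the opposite strand. Carriers were given in full by library where groups did not overlap, for the 10 highest, for Ucp1 to Ucp3, Mtch1, Mtch2 and listed paralog sets, and others were added or shortened after their values were seen. The values of 1 tested carrier are not reported here by name, though counts and medians include it.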

Additional observations from a re-analysis of the deposited data

How the results depend on the processing

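Under all 14 alternatives 0 carriers passed, adjusted or unadjusted, and the lowest adjusted p of a carrier ran from 0.578 (without DMSO replicate 1) to nearly 1 in DESeq2. Of the 33 tested carriers 18 kept 1 sign in every alternative that tested them, 13 negative and 5 positive. The stricter filter left 30 carriers, without Slc25a25, Slc25a26 and Slc25a45. The carrier median ran from -0.12 to -0.019 with each library left out, and was -0.08 with the replicate block. Over all genes 3 passed, against 21 without a low-count filter, 18 in DESeq2, 7 with the replicate block and 1 to 7 with a library left out (7 when DMSO replicate 1 was left out, 1 when either DMSO replicate 3 or the first treated library was). With libraries left out, log2 fold changes changed sign for Slc25a36 (-0.31 to 0.16), Slc25a13 (-0.55 to 0.19), Slc25a5 (-0.26 to 0.24), Slc25a1 (-0.028 to 0.11), Slc25a37 (-0.017 to 0.49), Slc25a24 (-0.33 to 0.15) and Slc25a22 (-0.28 to 0.11), where fewer samples enter each fit. Another 7 took both signs over the alternatives (Slc25a10, Slc25a11, Slc25a20, Slc25a30, Slc25a32, Slc25a45 and Slc25a46), between -0.24 and 0.40. The labels do not say that replicate numbers mark a shared animal or culture, so the numbers were not taken as pairs. Deviations of same-numbered libraries correlated across genes at -0.03, 0.21 and 0.08, and those of differently numbered ones at -0.23 to 0.15. With 3 libraries a group, these values cannot decide whether pairs exist. Of the 11 carriers under 20 CPM 5 had intervals reaching past a 2-fold change, against 1 of 22 above, and depth was not separated from spread between libraries.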
